A study of Mus musculus with 24 samples.

Results

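Activated macrophages switch on a set of genes whose products restrain the Toll-like receptor signalling that induced them, and 9 such feedback inhibitors are described here: Tnfaip3, Tnip1, Tnip3, Cyld, N4bp1, Irak3, Zc3h12a, Zfp36 and Socs1. They were chosen by name, from knowledge of the pathway, but with earlier results of these data known. The names were matched to the gene identifiers of the counts table through the GENCODE M21 mouse annotation. All 9 were found among 22165 genes in the table, and all 9 passed the filter on low counts that left 11878 genes to be tested. The libraries came from bone marrow-derived macrophages (BMDMs), cells grown from mouse marrow for 7 days in M-CSF at 20 ng/ml, of wild-type (WT) C57BL/6N mice and of Irg1-/- mice on the same background. Irg1 (Acod1 in the table) encodes the enzyme that makes itaconate, and the Irg1-/- mice carried a conventional knockout, so any other cell type in a culture lacked the gene too. The labels give mice of both sexes aged 8 to 20 weeks, while the study's methods give a wider age range.

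Each genotype was sampled in 4 treatments, and lipopolysaccharide (LPS), the bacterial ligand of TLR4, was used at 100 ng/ml throughout. Cells were left unstimulated (Unstim.), stimulated for 3 h after a mock first treatment (LPS 3h, non-tolerized), harvested straight after 24 h of LPS (LPS 24h), or given 24 h of LPS, fresh medium for 1 h without LPS and then LPS again for 3 h (LPS 24h->LPS 3h, tolerized). The last group differs from LPS 24h in the medium change and rest as well as in the second LPS, and no group in the table separated these steps. The study's tolerization protocol gives the medium change and rest also to cells left without the first LPS, the design of the LPS 3h group. Whether Unstim. cultures had these steps is not said in the study's methods, so LPS 3h may differ from Unstim. in them too. There were 3 independent cultures in each of the 8 groups, 24 libraries in all, and every value given for a group below has n = 3 cultures. Values are CPM (read counts scaled to a common library total) normalized for library composition. Comparisons are log2 fold changes with standard errors (SE) and with p-values adjusted by the Benjamini-Hochberg method over all genes tested, from edgeR's quasi-likelihood test, and a call means an adjusted p under 0.05. Whether groups overlapped is given as a description only, and the share of all genes whose groups did not overlap was not counted.

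Gene counts per library ran from 3927378 to 20430359. The log2 difference of Acod1 between Irg1-/- and WT cultures was -10.82 at LPS 3h, -9.02 after 24 h of LPS and -9.82 in tolerized cells, and at Unstim. it did not separate the genotypes (0.20). All 8 macrophage markers were detected in every group. The summed level of 8 neutrophil markers ran from 412 to 719 CPM in the Unstim. and LPS 3h cultures. It ran from 65.1 to 231 CPM in the cultures that had received 24 h of LPS. Among the 8, Ly6g, Mpo and Elane reached at most 14, 37 and 34 counts in a library. Camp, Ltf and Ngp reached 285, 772 and 1197 counts, and S100a8 and S100a9 reached 3111 and 5544. The libraries' labels carry 1 of 4 numbered prefixes, read here as library pools, although the labels do not say what a prefix stands for. These pools did not cross the groups evenly. All 6 Unstim. libraries were in pool 4. WT cultures 1, 2 and 3 under LPS were in pools 1, 2 and 4, and the Irg1-/- libraries under LPS were in pools 1, 2 and 3. In bulk RNA, a change in the number of cells of one type cannot be told apart from a change in RNA per cell.

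As background, TLR4 passes its signal through the adaptor MyD88 to the IRAK kinases and the ubiquitin ligase TRAF6, whose ubiquitin chains recruit the kinases that activate NF-kappaB. Feedback inhibitors act at successive steps: some edit or bind the ubiquitin chains, one blocks the IRAK complex, some destroy the induced mRNAs, and one blocks the cytokine receptors that respond to the secreted products. Macrophages that have already met LPS respond less to a second dose, a state called endotoxin tolerance, and several of these inhibitors are known for limiting that second response.

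NF-kappaB drives transcription of several of these genes, so their RefSeq promoters (build GRCm38) were searched for the NF-kappaB consensus. Of the 9 genes, 4 held a match in the window from 250 bases before to 50 bases after a RefSeq start site, whereas 5.14% of 27025 genes in the same promoter collection did. The stretches with the matches are shown because these 4 genes are among those whose RNA is followed below. Each is written 5′ to 3′ on the gene's strand, ends at the base before the start site, and has the matching bases in capitals.
Tnfaip3, chr10:19015411-19015547, minus strand: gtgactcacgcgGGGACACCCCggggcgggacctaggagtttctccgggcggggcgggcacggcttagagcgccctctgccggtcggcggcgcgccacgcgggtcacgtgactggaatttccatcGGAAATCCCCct
Tnip1, chr11:54962941-54963100, minus strand: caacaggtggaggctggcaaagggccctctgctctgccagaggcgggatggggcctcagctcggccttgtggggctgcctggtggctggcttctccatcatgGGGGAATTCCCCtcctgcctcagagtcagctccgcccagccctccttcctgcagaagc
Tnip3, chr6:65590238-65590397, plus strand: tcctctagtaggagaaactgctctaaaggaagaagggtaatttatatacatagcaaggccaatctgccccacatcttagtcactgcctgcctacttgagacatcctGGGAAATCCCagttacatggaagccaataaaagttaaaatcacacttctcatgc
Cyld, chr8:88696868-88697027, plus strand: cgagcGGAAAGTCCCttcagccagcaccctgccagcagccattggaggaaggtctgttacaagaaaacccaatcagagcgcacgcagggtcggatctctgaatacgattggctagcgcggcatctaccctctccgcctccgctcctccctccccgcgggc

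Counting from the start site, the matches began at -125 and -12 in Tnfaip3, at -54 in Tnip3 and at -155 in Cyld. The palindromic run in Tnip1 holds 3 overlapping matches that began at -58, -57 and -56. The Tnfaip3 and Tnip3 stretches lie within introns of longer transcripts in the annotation. Other motifs were less common among the 9: the GAS element TTCNNNGAA, bound by STAT factors, was found in Zfp36 at -17 and in Tnip1 at -199 (9.55% of all genes), the AP-1 site TGANTCA in Tnfaip3 at -136 (8.97% of all genes), and the CRE half-site TGACGT in Tnfaip3 and Irak3 (8.37% of all genes). Both strands were searched, a match is a description of the letters, and no match says only that the letters were not in the window.

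In outline, all 9 genes were higher after 3 h of LPS than in Unstim. WT cultures, where 15.8% of all tested genes were called higher, and 8 of 9 were called in Irg1-/- cultures against 17.0% of all genes. Across the members the median log2 fold change in WT cells was 3.60, against -0.18 over all genes tested. In the LPS 24h->LPS 3h group they separated: Tnfaip3, Tnip3, Zfp36 and Socs1 were between 12.3% and 21.2% of their LPS 3h means in both genotypes, while Zc3h12a was at 75.1% in WT and 90.6% in Irg1-/- cultures. By edgeR no member was called between the genotypes in any treatment, where 0.00842% to 0.598% of all genes were called. DESeq2's Wald test called 2 members at LPS 24h.

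**Figure D1:**
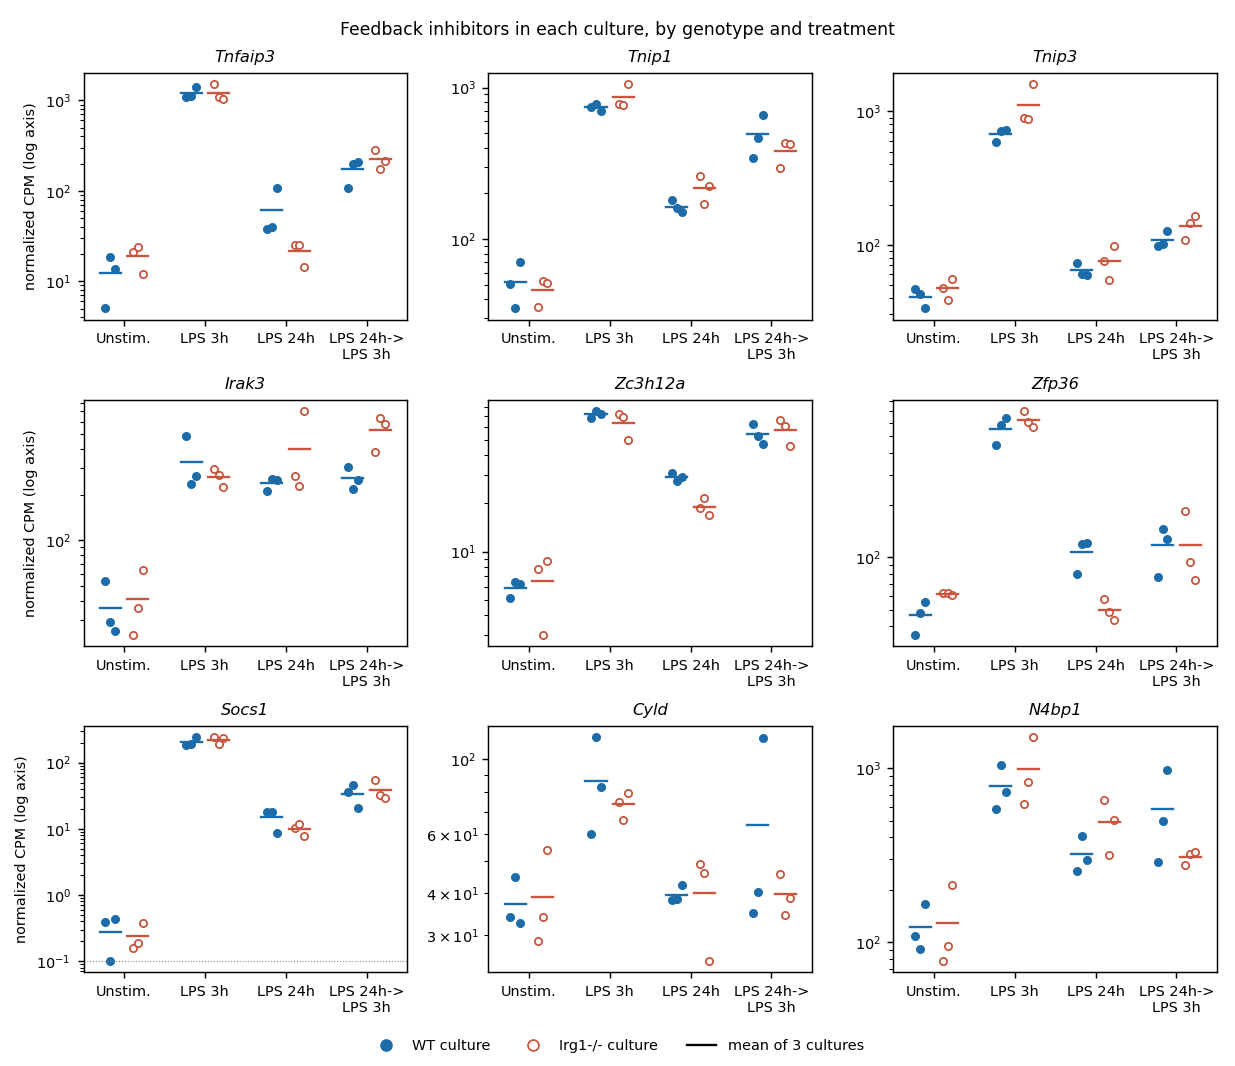
Normalized CPM (log axis) of the 9 feedback inhibitors in each culture under the 4 treatments, with WT as filled blue points, Irg1-/- as open red points and a line at the mean of 3 cultures. Socs1 in WT Unstim. culture 2 had 0 counts and is drawn at the dotted line. Tnfaip3, Tnip3, Zfp36 and Socs1 peak at LPS 3h and are lower in every LPS 24h->LPS 3h culture, whereas Zc3h12a is at 46.0 CPM or more in every culture of both treatments.

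Tnfaip3 (chromosome 10, 19000910 to 19015657, minus strand) encodes A20, an enzyme that removes and rebuilds ubiquitin chains on NF-kappaB signalling proteins. In WT cultures 1, 2 and 3 it was at 5.02, 18.7 and 13.8 normalized CPM in Unstim., 1079, 1104 and 1402 at LPS 3h, 37.5, 39.9 and 107 at LPS 24h, and 107, 199.7 and 209.8 at LPS 24h->LPS 3h. In Irg1-/- cultures the levels were 20.9, 24.1 and 12.2 in Unstim., 1501, 1086 and 1036 at LPS 3h, 25.2, 25.2 and 14.4 at LPS 24h, and 283, 176 and 214 at LPS 24h->LPS 3h. Every LPS 3h culture was above every culture of the other treatments, and WT culture 3 was the high one at LPS 24h. Tnfaip3 rose at 3 h by 6.58 (SE 0.51, adjusted p = 4.82e-12, edgeR) on the log2 scale in WT and by 6.0 (SE 0.49, adjusted p = 2.53e-11) in Irg1-/- cells.

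Tnip1 (chromosome 11, 54910785 to 54962917, minus strand) and Tnip3 (chromosome 6, 65525313 to 65634040, plus strand) encode ABIN proteins, ubiquitin-binding partners of A20. Tnip1 in WT cultures 1, 2 and 3 was at 50.4, 34.8 and 70.1 normalized CPM in Unstim., 744, 773 and 703 at LPS 3h, 180.3, 161 and 150.2 at LPS 24h, and 343, 464 and 662 at LPS 24h->LPS 3h. Its Irg1-/- levels were 35.5, 52.4 and 51.1, then 773, 764 and 1048, then 260.1, 171 and 224, and finally 295, 428 and 422 in the same order of treatments. The Tnip1 treatment groups did not overlap within either genotype, and WT culture 3 came close to LPS 3h in the last group. Tnip1 rose at 3 h by 3.84 (SE 0.32, adjusted p = 4.03e-11, edgeR) in WT and by 4.22 (SE 0.33, adjusted p = 8.15e-12) in Irg1-/- cells.

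Tnip3 in WT cultures 1, 2 and 3 was at 46.6, 42.7 and 33.3 normalized CPM in Unstim., 593, 712 and 729.8 at LPS 3h, 73.4, 60.4 and 59.7 at LPS 24h, and 97.8, 101 and 128 at LPS 24h->LPS 3h. The Irg1-/- levels were 47.5, 38.3 and 55.2, then 897, 879 and 1596, then 75.0, 53.9 and 97.5, and then 108, 145 and 163. All cultures outside LPS 3h were at 163 CPM or less, so Tnip3 was high in 1 treatment alone of the 4 sampled. Its rise at 3 h was 4.05 (SE 0.32, adjusted p = 9.42e-12, edgeR) in WT and 4.58 (SE 0.33, adjusted p = 1.18e-12) in Irg1-/- cells.

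Cyld (chromosome 8, 88697028 to 88751945, plus strand) encodes a deubiquitinase that trims the chains needed for NF-kappaB activation, and it moved least at 3 h among the 9. Its WT levels in cultures 1, 2 and 3 were 33.9, 44.9 and 32.7 normalized CPM in Unstim., 60.1, 116 and 83.1 at LPS 3h, 38.1, 38.6 and 42.3 at LPS 24h, and 34.9, 40.4 and 116 at LPS 24h->LPS 3h. In Irg1-/- cultures they were 28.8, 33.9 and 53.9, then 75.0, 66.1 and 79.5, then 48.9, 46.1 and 25.1, and then 45.8, 34.5 and 38.8. WT culture 3 stood alone in the last group, at the level of the highest LPS 3h culture. Cyld rose at 3 h by 1.22 (SE 0.37, adjusted p = 0.0102, edgeR) in WT cells, a call that was lost without WT LPS 3h culture 2 (0.99, adjusted p = 0.0662), and its Irg1-/- difference of 0.91 (SE 0.37, adjusted p = 0.0501) was not called, although DESeq2's Wald test called it (0.98, adjusted p = 0.0302), as did 5 of the other 7 settings.

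N4bp1 (chromosome 8, 86808160 to 86885258, minus strand) encodes a ubiquitin-binding protein with a nuclease domain that restrains cytokine production. WT cultures 1, 2 and 3 had 109, 91.7 and 166 normalized CPM in Unstim., 583, 1048 and 731 at LPS 3h, 257, 407 and 295 at LPS 24h, and 288, 494 and 974 at LPS 24h->LPS 3h. Irg1-/- cultures had 77.8, 95.6 and 214, then 623, 832 and 1504, then 656, 317 and 501, and then 277, 319.7 and 328. The spread among cultures was wide in WT LPS 24h->LPS 3h, where culture 3 was again highest, and narrow in the Irg1-/- group of that treatment. N4bp1 rose at 3 h by 2.69 (SE 0.43, adjusted p = 7.84e-06, edgeR) in WT and by 2.93 (SE 0.43, adjusted p = 2.33e-06) in Irg1-/- cells.

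Irak3 (chromosome 10, 120141648 to 120202130, minus strand) encodes IRAK-M, a member of the IRAK family that holds back signalling from the receptor complex. In WT cultures 1, 2 and 3 it was at 54.0, 29.4 and 25.7 normalized CPM in Unstim., 484, 233 and 265 at LPS 3h, 211, 251 and 249 at LPS 24h, and 303, 217 and 251 at LPS 24h->LPS 3h. Irg1-/- cultures had 24.2, 36.4 and 64.6, then 293, 267 and 225, then 265, 228 and 706, and then 378, 635 and 578. In WT cells Irak3 was high in all 3 LPS treatments, with overlapping levels, and in Irg1-/- cells the LPS 24h->LPS 3h cultures were above all LPS 3h cultures. The rise at 3 h was 3.17 (SE 0.42, adjusted p = 3.12e-07, edgeR) in WT and 2.64 (SE 0.41, adjusted p = 4.98e-06) in Irg1-/- cells. The gene overlaps Tmbim4 and an antisense gene in the annotation, and the strand setting of the counting was not given in the sources used here, so reads of these genes could be mixed.

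Zc3h12a and Zfp36 act on mRNA. Zc3h12a (chromosome 4, 125118423 to 125127840, minus strand) encodes Regnase, an endonuclease that cleaves inflammatory mRNAs. WT cultures 1, 2 and 3 had 5.09, 6.49 and 6.24 normalized CPM of Zc3h12a in Unstim., 68.7, 75.9 and 72.3 at LPS 3h, 30.9, 27.8 and 29.2 at LPS 24h, and 62.6, 53.1 and 47.2 at LPS 24h->LPS 3h. Irg1-/- cultures had 7.79, 3.02 and 8.73, then 72.2, 69.6 and 49.6, then 18.7, 21.5 and 17.0, and then 66.6, 60.7 and 46.0. Zc3h12a was thus high after each of the 3 h exposures to LPS and intermediate after 24 h, with no overlap between LPS 24h and either 3 h group. It rose at 3 h by 3.60 (SE 0.33, adjusted p = 2.17e-10, edgeR) in WT and by 3.26 (SE 0.33, adjusted p = 1.77e-09) in Irg1-/- cells.

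Zfp36 (chromosome 7, 28376784 to 28380253, minus strand) encodes tristetraprolin, which binds AU-rich elements and recruits the enzymes that shorten and decay the transcript. WT cultures 1, 2 and 3 had 35.8, 47.7 and 55.7 normalized CPM in Unstim., 444, 578 and 636 at LPS 3h, 80.5, 120.1 and 121 at LPS 24h, and 77.6, 147 and 128 at LPS 24h->LPS 3h. Irg1-/- cultures had 62.5, 62.6 and 60.7, then 702, 607 and 563, then 57.6, 48.2 and 43.4, and then 186, 94.2 and 73.7. In WT cells the last 2 treatments overlapped, and in Irg1-/- cells culture 1 stood above the other two in the last one. Zfp36 rose at 3 h by 3.57 (SE 0.34, adjusted p = 5.04e-10, edgeR) in WT and by 3.33 (SE 0.34, adjusted p = 1.92e-09) in Irg1-/- cells.

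Socs1 (chromosome 16, 10782240 to 10785536, minus strand) encodes an inhibitor of the JAK kinases downstream of interferon and cytokine receptors. It was close to undetected in Unstim. cultures, with 6, 0 and 9 counts in WT cultures 1, 2 and 3 and 1, 1 and 7 counts in Irg1-/- cultures. At LPS 3h the WT cultures had 184, 194 and 239.6 normalized CPM, followed by 18.1, 17.7 and 8.69 at LPS 24h and by 36.0, 45.3 and 20.9 at LPS 24h->LPS 3h. Irg1-/- cultures had 241, 189 and 233, then 10.1, 12.0 and 7.73, and then 54.8, 32.3 and 28.7. No Socs1 treatment groups overlapped within a genotype. The fitted rise at 3 h was 9.33 (SE 0.54, adjusted p = 9.48e-15, edgeR) in WT and 9.55 (SE 0.57, adjusted p = 2.42e-14) in Irg1-/- cells, and the size of these folds depends on how the near-zero Unstim. counts are handled.

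The Unstim. and most LPS 3h libraries were in different pools. Within pool 4, which held WT LPS 3h culture 3 and the 3 WT Unstim. cultures, the log2 differences were 6.98 for Tnfaip3, 3.82 for Tnip1, 4.17 for Tnip3, 2.94 for Irak3, 3.58 for Zc3h12a, 3.79 for Zfp36, 9.26 for Socs1, 1.17 for Cyld and 2.63 for N4bp1, each within 0.5 of the pooled fit. No pool held Irg1-/- libraries of both treatments. A fit with the pool as a term gave 6.90, 4.26, 4.45, 2.96, 3.31, 3.40, 9.0, 1.37 and 2.45 in the same order of genes for Irg1-/- cells.

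After 24 h of continuous LPS, 7 of 9 members were still called higher than in Unstim. WT cells (9.25% of all genes) and 5 of 9 in Irg1-/- cells (7.31% of all genes). Socs1, Irak3, Zc3h12a, Tnip1 and N4bp1 were called in both genotypes. Irak3 was 2.71 (SE 0.41) above Unstim. on the log2 scale in WT and 3.25 (SE 0.42) in Irg1-/- cells, and Zc3h12a was 2.30 (SE 0.31) and 1.51 (SE 0.31) above it. Tnfaip3 and Zfp36 were called higher in WT cells, by 2.30 (SE 0.42, adjusted p = 0.000123, edgeR) and 1.21 (SE 0.31, adjusted p = 0.00606). In Irg1-/- cells the Tnfaip3 difference was 0.19 (95% confidence interval -0.64 to 1.02) and the Zfp36 difference was -0.32 (-0.95 to 0.31), neither of them called. All Irg1-/- LPS 24h libraries were in pool 1 and all Unstim. libraries in pool 4, and with the pool as a term these 2 differences were 1.19 (adjusted p = 0.139) and 0.37. Tnip3 and Cyld were called in neither genotype. The N4bp1 call in WT cells (1.39, adjusted p = 0.0165) was lost without LPS 24h culture 2 (1.16), Unstim. culture 1 (1.29) or Unstim. culture 2 (1.21). The Zfp36 call in WT cells was lost without Unstim. culture 1 (1.03, adjusted p = 0.0580).

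From LPS 3h to LPS 24h, 8 of 9 members fell in WT cells, where 15.5% of all genes were called lower, and 6 of 9 fell in Irg1-/- cells, where 16.9% were. Tnfaip3 fell by 4.28 (SE 0.45) on the log2 scale in WT and by 5.80 (SE 0.49) in Irg1-/- cells. Socs1 changed by -3.79 (SE 0.40) and -4.47 (SE 0.41), and Tnip3 by -3.39 (SE 0.31) and -3.90 (SE 0.32). Irak3 was the member called in neither genotype, at -0.46 (-1.25 to 0.32) in WT and 0.61 (-0.17 to 1.39) in Irg1-/- cells. In WT cells the falls of Cyld (-1.13, adjusted p = 0.0181) and N4bp1 (-1.30, adjusted p = 0.0145) were not called without LPS 3h culture 2 (-0.92 and -1.11), nor was that of N4bp1 without LPS 24h culture 1 (-1.22). The same genes missed the threshold in Irg1-/- cells, with differences of -0.88 and -1.0 and adjusted p-values of 0.0597 and 0.0527, and DESeq2's Wald test called both. Within the 3 pools that each held WT cultures of both treatments, all 8 genes that fell were lower in each pool, at -0.66 or beyond on the log2 scale. No pool held Irg1-/- libraries of both treatments.

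The comparison that addresses tolerance, LPS 24h->LPS 3h against LPS 3h alone, asks whether cells with a history of LPS reach the level of a first stimulation. In WT cells 4 of 9 members were called lower, against 13.1% of all genes: Tnfaip3 by -2.79 (SE 0.42, adjusted p = 9.38e-06, edgeR), Tnip3 by -2.64 (SE 0.30, adjusted p = 9.94e-08), Socs1 by -2.60 (SE 0.38, adjusted p = 5.17e-06) and Zfp36 by -2.23 (SE 0.32, adjusted p = 4.34e-06) on the log2 scale. These 4 genes kept 14.4%, 16.1%, 16.6% and 21.2% of their LPS 3h mean. In Irg1-/- cells the same 4 genes changed by -2.43, -3.02, -2.52 and -2.40, and kept 18.6%, 12.3%, 17.5% and 18.9%. None of these 8 calls was lost under any alternative or on leaving out any culture. Their groups did not overlap, and the smallest p an exact permutation test allows with 3 against 3 cultures is 0.1.

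The other 5 members did not pass in WT cells. Tnip1 kept 66.2% of its LPS 3h mean (-0.60, 95% confidence interval -1.19 to 0.00, adjusted p = 0.132, edgeR), Zc3h12a kept 75.1% (-0.41, -1.01 to 0.19) and Irak3 kept 78.4% (-0.35, -1.13 to 0.43). The upper end of the Tnip1 interval, rounded here, was just below 0. Its unadjusted p was under 0.05, as it was for 37.2% of all genes. Cyld kept 73.7% (-0.44, -1.18 to 0.30) and N4bp1 kept 74.3% (-0.43, -1.25 to 0.39). Without WT LPS 3h culture 1, the high one, the Irak3 difference was -0.0015. The Cyld and N4bp1 values rest on WT LPS 24h->LPS 3h culture 3, which was in pool 4: within pools 1, 2 and 4 the Cyld difference was -0.78, -1.52 and 0.48, and the N4bp1 difference was -1.02, -1.09 and 0.41. Without that culture, N4bp1 was at -1.07 (adjusted p = 0.0709), Cyld changed by -1.26 (adjusted p = 0.0090) and Tnip1 by -0.93 (adjusted p = 0.0317). Tnip1 within the 3 pools was at -1.12, -0.74 and -0.09. The 4 called genes were lower in every pool, at -1.98 to -3.51. Zc3h12a (-0.13, -0.51 and -0.62) and Irak3 (-0.68, -0.10 and -0.08) were also lower in every pool, by less, as was Tnip1. The LPS 3h and LPS 24h->LPS 3h groups of Tnip1 and Zc3h12a did not overlap in WT cells.

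In Irg1-/- cells 6 of 9 members were called lower (14.1% of all genes) and 1 higher (13.1% of all genes). Besides the 4 genes above, Tnip1 fell by 1.17 (SE 0.29, adjusted p = 0.003, edgeR) to 44.3% of its LPS 3h mean and N4bp1 fell by 1.68 (SE 0.41, adjusted p = 0.00261) to 31.2%. Irak3 was the gene called higher, at 202.8% of its LPS 3h mean (1.02, SE 0.39, adjusted p = 0.0479). That call was lost without LPS 24h->LPS 3h culture 2 (0.85) or 3 (0.93), without LPS 3h culture 1 (1.08), 2 (1.00) or 3 (0.90), and under both DESeq2 alternatives (0.91). Zc3h12a kept 90.6% (-0.14, -0.74 to 0.46) and Cyld 54.0% (-0.89, -1.63 to -0.15, adjusted p = 0.0675), which DESeq2 called (-1.0, adjusted p = 0.0311). With the pool as a term 4 members remained called, and Tnip1 (-1.09), N4bp1 (-0.67) and Irak3 (0.48) did not pass. The only pool with both treatments was pool 2, with 1 culture of each, where Tnip1 was at -1.39, N4bp1 at -1.17 and Irak3 at 0.37.

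**Figure D2:**
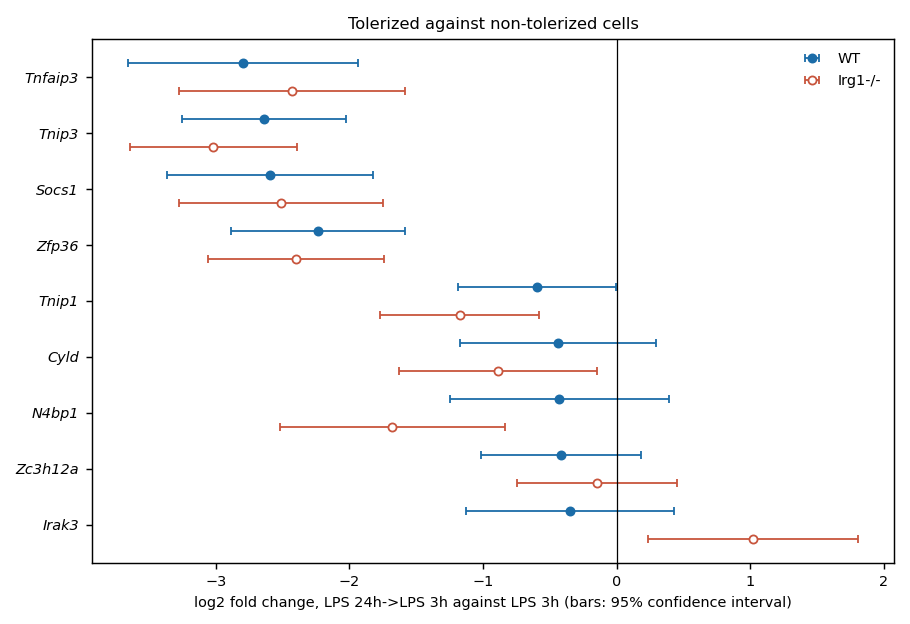
Log2 difference of LPS 24h->LPS 3h from LPS 3h for each gene, with 95% confidence intervals from the edgeR fit, in WT and Irg1-/- cells, ordered by the WT value. Tnfaip3, Tnip3, Socs1 and Zfp36 lie between -2.23 and -3.02 in both genotypes, and the intervals of Zc3h12a include 0 in both.

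How far the tolerance comparison differed between the genotypes was tested as an interaction, and 0 members passed (0.0% of all genes were called). At an unadjusted p under 0.05, which 7.23% of all genes passed, there were 2, Irak3 at 1.37 (adjusted p = 0.573, edgeR) and N4bp1 at -1.25 (adjusted p = 0.649), and DESeq2 called 0. With the pool as a term these differences were 0.78 and -0.15, and the N4bp1 one was -0.64 without WT LPS 24h->LPS 3h culture 3 and -0.79 without Irg1-/- LPS 3h culture 3. The members called in Irg1-/- but not in WT cells were therefore not shown to differ between them. Summed neutrophil markers were at 561 to 666 CPM in WT LPS 3h and 70.8 to 147.5 CPM in WT LPS 24h->LPS 3h cultures, and at 412 to 602 and 65.1 to 104 CPM in the Irg1-/- groups. Fibroblast markers summed to 261 to 430 CPM in Unstim. and LPS 3h cultures and 103 to 245 CPM in the other treatments. Their part in the results was not tested.

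Against their own LPS 24h level, 2 of 9 members were higher after the second LPS in WT cells (2.46% of all genes): Tnip1 rose by 1.58 (SE 0.30, adjusted p = 0.0011, edgeR) and Tnfaip3 by 1.48 (SE 0.41, adjusted p = 0.031). Both rises were seen within pools 1, 2 and 4, at 0.93, 1.53 and 2.14 for Tnip1 and at 1.51, 2.32 and 0.97 for Tnfaip3. Neither was called when only the compared groups entered the fit, with adjusted p-values of 0.0635 and 0.177, and the Tnfaip3 call was also lost without LPS 24h culture 1 (1.22) or 2 (1.25) or LPS 24h->LPS 3h culture 2 (1.39) or 3 (1.31). Socs1 was at 1.20 (adjusted p = 0.0585), Zc3h12a at 0.89 (adjusted p = 0.0913) and Tnip3 at 0.75 (adjusted p = 0.149), with no overlap between the groups for these 3 genes. Irak3 at 0.11, Zfp36 at 0.13, Cyld at 0.69 (adjusted p = 0.347) and N4bp1 at 0.87 (adjusted p = 0.268) had overlapping groups. Socs1 and Zc3h12a were called by DESeq2's Wald test, and without WT LPS 24h->LPS 3h culture 3 the Socs1 difference was 1.48 (adjusted p = 0.0240). In edgeR, Socs1 was also called without the filter on low counts (adjusted p = 0.0168) and with the replicate block (adjusted p = 0.0488). The same held with TMM computed without the 20 genes with most counts (adjusted p = 0.0489).

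In Irg1-/- cells 4 of 9 members rose on the second exposure (3.44% of all genes): Tnfaip3 by 3.37 (SE 0.44, adjusted p = 2.39e-06, edgeR), Socs1 by 1.96 (SE 0.37, adjusted p = 0.000782), Zc3h12a by 1.60 (SE 0.30, adjusted p = 0.000717) and Zfp36 by 1.25 (SE 0.31, adjusted p = 0.012). Within pool 1, with 2 restimulated and 3 LPS 24h cultures, the same 4 differences were 3.20, 1.62, 1.47 and 0.75. The Zfp36 call was lost without LPS 24h->LPS 3h culture 1 (0.80, adjusted p = 0.19), the high culture named above, and also without LPS 24h culture 2 (1.26) or 3 (1.19). Tnip1 was at 0.81 (adjusted p = 0.12), Tnip3 at 0.88 (adjusted p = 0.0739), Irak3 at 0.41, or 1.14 without LPS 24h culture 3, Cyld at -0.01 and N4bp1 at -0.67 (adjusted p = 0.463). Tnip3 was called by DESeq2's Wald test (adjusted p = 0.0312), with the replicate block (adjusted p = 0.0367) and without LPS 24h culture 3 (1.14).

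The difference between the genotypes in this second rise was tested as a comparison chosen after seeing the data. It gave 0 members at an adjusted p under 0.05 in edgeR (0.00842% of all genes were called) and 0 in DESeq2. At an unadjusted p under 0.05, which 8.66% of all genes passed, there were 3: Tnfaip3 had a difference of 1.89 on the log2 scale (95% confidence interval 0.73 to 3.05, adjusted p = 0.244), Zfp36 had a difference of 1.11 (0.23 to 2.00, adjusted p = 0.432) and N4bp1 one of -1.55 (-2.71 to -0.38, adjusted p = 0.385). None of these passed the correction. Each rested in part on 1 culture: the Tnfaip3 difference was 1.22 without WT LPS 24h culture 3, the Zfp36 one 0.65 without Irg1-/- LPS 24h->LPS 3h culture 1, and the N4bp1 one -0.93 without WT LPS 24h->LPS 3h culture 3.

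**Figure D3:**
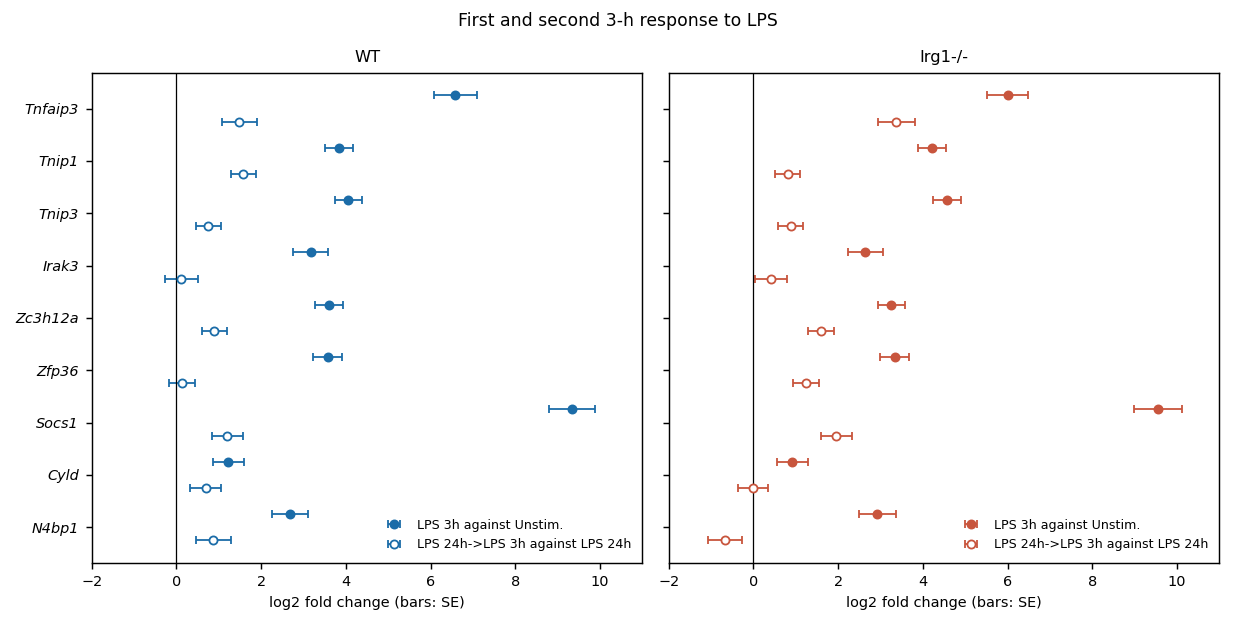
First response (LPS 3h against Unstim., filled) and second response (LPS 24h->LPS 3h against LPS 24h, open) of each gene as log2 fold change ± SE in WT and Irg1-/- cells. Tnfaip3 goes from 6.58 to 1.48 in WT and from 6.0 to 3.37 in Irg1-/- cells, and Cyld is the gene with the smallest first response in both.

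Setting the second response against the first in one test, 8 of 9 members were called lower in WT cells (10.1% of all genes) and 8 of 9 in Irg1-/- cells (8.63% of all genes), and Cyld was not called in either. This difference combines a raised starting level at 24 h with the level that was reached. Zc3h12a shows how the starting level enters: its second response minus its first was -2.72 (SE 0.43) in WT and -1.66 (SE 0.43) in Irg1-/- cells, although its level after the second LPS was not called different from LPS 3h. Tnip3 shows the other case, with differences of -3.30 (SE 0.41) and -3.70 (SE 0.41) from a 24 h level that was not called above Unstim. Irak3, which was not called lower at 24 h than at 3 h, differed by -3.06 (SE 0.55) and -2.23 (SE 0.55).

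Between Irg1-/- and WT cells, 0 of 9 members were called in Unstim. (0.0421% of all genes), at LPS 3h (0.00842%), at LPS 24h (0.598%) and at LPS 24h->LPS 3h (0.118%) by edgeR. At an unadjusted p under 0.05 there were 0, 1, 3 and 2 members in these treatments, where 5.2%, 5.84%, 10.1% and 7.88% of all genes passed it, and DESeq2's Wald test called 0, 0, 2 and 0. The 95% confidence intervals show what size of difference the 3 cultures leave possible. At LPS 3h, the Tnfaip3 difference was 0.02 (-0.79 to 0.82), the Socs1 difference 0.10 (-0.62 to 0.82) and the Zfp36 difference 0.17 (-0.45 to 0.80). Tnip3 was the LPS 3h gene with an unadjusted p under 0.05, at 0.73 (0.15 to 1.31, adjusted p = 0.716), the pair of cultures in pool 2 differed by 0.33, and without Irg1-/- culture 3 the difference was 0.39.

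The 2 largest differences between genotypes were at LPS 24h. Tnfaip3 was at 14.4 to 25.2 CPM in Irg1-/- and 37.5 to 107 CPM in WT cultures (-1.51, 95% confidence interval -2.34 to -0.68, adjusted p = 0.0869, edgeR). Zfp36 was at 43.4 to 57.6 CPM in Irg1-/- and 80.5 to 121 CPM in WT cultures (-1.11, -1.74 to -0.47, adjusted p = 0.108). Zc3h12a was at 17.0 to 21.5 CPM against 27.8 to 30.9 CPM (-0.62, -1.23 to -0.01, adjusted p = 0.475). All 3 genes had groups that did not overlap, each at an exact permutation p of 0.1, the smallest possible with 3 against 3 cultures. None of the 3 passed the correction in edgeR. DESeq2's Wald test called Tnfaip3 (adjusted p = 0.0168) and Zfp36 (adjusted p = 0.0198), and edgeR without the filter on low counts called Tnfaip3. All Irg1-/- LPS 24h libraries were in pool 1 with 1 WT culture, and within that pool the differences were -0.83, -0.70 and -0.70. With the pool as a term Tnfaip3 was at -0.90 and Zfp36 at -0.59, both with an adjusted p of 0.52. Leaving out WT LPS 24h culture 1 brought both genes under the threshold, at -1.80 (adjusted p = 0.0284) and -1.29 (adjusted p = 0.0441). Leaving out WT LPS 24h culture 3, the high Tnfaip3 culture, left differences of -0.82 (adjusted p = 0.701) and -0.98 (adjusted p = 0.447).

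At LPS 24h->LPS 3h, Irak3 was at 378 to 635 CPM in Irg1-/- and 217 to 303 CPM in WT cultures (1.05, 95% confidence interval 0.26 to 1.83, adjusted p = 0.406, edgeR). The groups did not overlap, and within pools 1 and 2 the Irak3 difference was 1.00 and 0.80. N4bp1 was at 277 to 328 CPM in Irg1-/- and 288 to 974 CPM in WT cultures (-0.93, -1.75 to -0.10, adjusted p = 0.541), and within pools 1 and 2 it was at 0.17 and -0.84. Without WT culture 3, the high one, the N4bp1 difference was -0.30 (adjusted p = 0.929). The 4 genes that fell in tolerance had small genotype differences here: 0.38 (-0.43 to 1.19) for Tnfaip3, 0.35 (-0.23 to 0.93) for Tnip3, 0.01 (-0.62 to 0.63) for Zfp36 and 0.18 (-0.55 to 0.91) for Socs1.

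**Figure D4:**
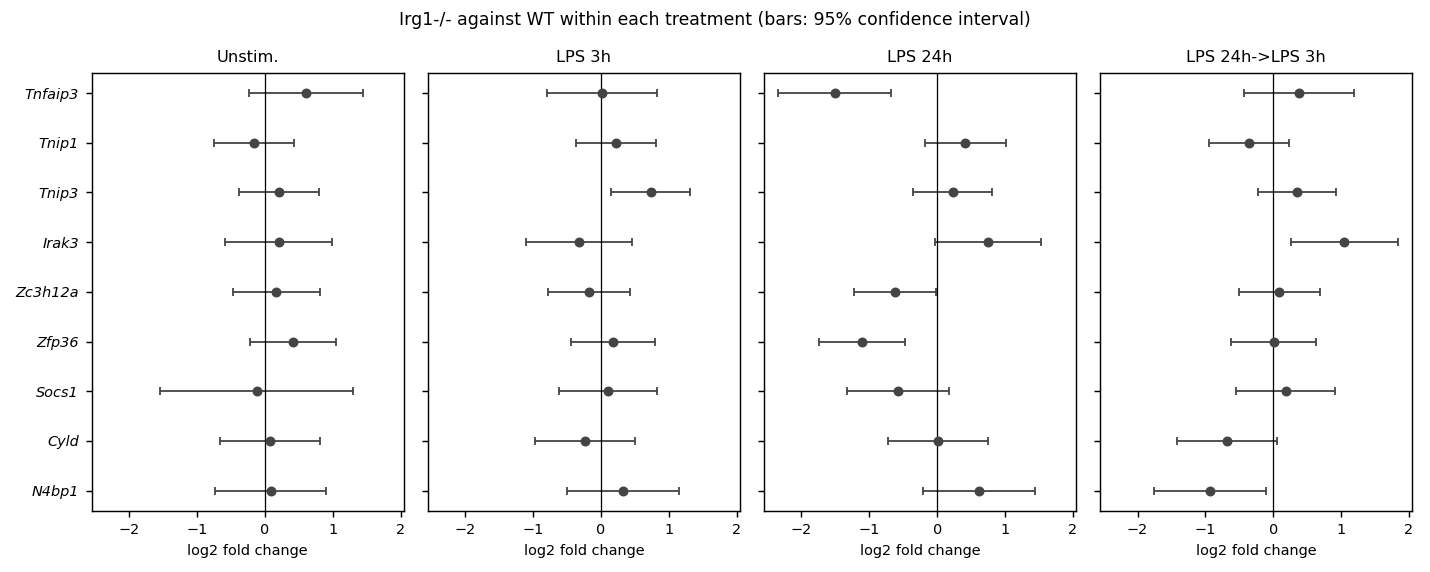
Log2 difference of Irg1-/- from WT cells for each of the 9 genes in the 4 treatments, with 95% confidence intervals from the edgeR fit. The intervals lie away from 0 for Tnip3 at LPS 3h, for Tnfaip3, Zfp36 and Zc3h12a at LPS 24h, and for Irak3 and N4bp1 at LPS 24h->LPS 3h, and no adjusted p passed 0.05.

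A list of 33 other inhibitors of the pathway, of which 32 were tested, was compared with the 9. At 3 h, 12 rose and 6 fell in WT cells, where 15.8% of all genes rose and 16.3% fell, and 12 rose and 7 fell in Irg1-/- cells, where 17.0% rose and 18.9% fell. The SOCS family gave the largest rises in WT cells: Socs3, an inhibitor of IL-6 receptor signalling, rose by 8.79 (SE 0.52, adjusted p = 1.39e-14, edgeR) and Cish, an inhibitor of STAT5 signalling, by 8.35 (SE 0.61), a fold whose size depends on WT Unstim. counts of 12, 0 and 8. Usp18, which removes ISG15 and limits interferon signalling, rose by 6.64 (SE 0.45), and Tank, an adaptor that restrains TRAF signalling, by 3.29 (SE 0.32). Of 7 other RNA-decay factors, the Zc3h12a relative Zc3h12c rose by 3.95 (SE 0.44), while the Zfp36 relatives Zfp36l2 and Zfp36l1 changed by -3.24 (SE 0.31) and -2.36 (SE 0.34), opposite in sign to Zfp36 itself. Of 7 partners and deubiquitinases, 3 rose and 2 fell in WT cells, and 2 rose and 0 fell in Irg1-/- cells. Tax1bp1, an A20 adaptor, and Tnip2 each rose by 1.49 in WT cells.

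In the tolerance comparison, 3 of the 32 were higher and 11 lower in WT cells (12.4% and 13.1% of all genes), and 7 were higher and 10 lower in Irg1-/- cells (13.1% and 14.1% of all genes). The SOCS list had 5 of 7 lower in WT and 4 of 7 lower in Irg1-/- cells, with 0 higher in either. Socs3 changed by -1.84 and -1.70 on the log2 scale. Cish was called lower in both, from 778 to 1296 counts in LPS 3h libraries to 9 to 50 counts in LPS 24h->LPS 3h libraries. Tnip2 changed by -1.48 (SE 0.37) and -1.86 (SE 0.37). Inpp5d, the phosphatase SHIP, was higher by 1.61 (SE 0.26, adjusted p = 2.2e-05, edgeR) in WT cells after falling by 2.27 (SE 0.26) at 3 h. From LPS 24h to the second LPS, 0 of the 32 rose and 2 fell in WT cells (2.46% and 1.53% of all genes), and 3 rose and 2 fell in Irg1-/- cells (3.44% and 1.7% of all genes). Among the 3 that rose were Zc3h12c, by 2.78 (SE 0.42), and Tank, by 2.02 (SE 0.31).

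Zfp36 and Zc3h12a are known to destabilise cytokine mRNAs, and 7 tested transcripts of a list of 8 such targets were followed beside them. All 7 were called higher at 3 h in both genotypes, against 15.8% of all genes in WT and 17.0% in Irg1-/- cells. All 7 were called lower in tolerance in both genotypes, against 13.1% and 14.1% of all genes. Among them Il6 was at -3.78 (SE 0.54) in WT and -4.27 (SE 0.55) in Irg1-/- cells. Il23a had 557 to 901 counts in WT LPS 3h libraries and 0, 14 and 0 counts in WT LPS 24h->LPS 3h cultures 1, 2 and 3, too few for the size of a fold. Cxcl2, a neutrophil chemokine and one of the 7, was the listed target called between the genotypes. It was at -1.60 (SE 0.30, adjusted p = 0.011, edgeR) in Irg1-/- cells at LPS 24h, where 0.598% of all genes were called. Its levels were 184 to 277 CPM in Irg1-/- cultures, all in pool 1, and 613 to 823 CPM in WT cultures of 3 pools. The Cxcl2 call was not checked under other settings or with a culture left out. Zfp36 and Zc3h12a also had negative differences in that treatment that did not pass, and a link to Cxcl2 was not tested.

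Across the 8 group means the members followed one another to different degrees. Pearson's r of log2 CPM was highest for Tnip1 and Socs1 (0.986) and lowest for Irak3 and Cyld (0.389), and these values describe 8 means from the same libraries. The genes with the most similar pattern, by the same measure over the whole table, were Peli1 for Tnfaip3 (0.996), Psma4 for Tnip1 (0.994), Ankrd17 for Tnip3 (0.996), Slc11a2 for Irak3 (0.995), Bcl2a1a for Zc3h12a (0.998), Sav1 for Zfp36 (0.998), Gm49342 for Socs1 (0.995), Slc38a1 for Cyld (0.993) and Ddx24 for N4bp1 (0.988).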

How the data were processed

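The authors sequenced 3′-end libraries made with barcoded oligo-dT primers, pooled, and amplified by PCR for 12 cycles. The submitters' processing notes name STAR and the mm10 build, and the STAR version, counting program, annotation and strand setting are not given in the sources used here. The table deposited by the authors holds raw counts per gene and library, with no normalization. Its 5 summary lines (reads in no gene, 22.1% to 33.7% of each library; not unique, 15.1% to 22.5%; and others) were left out of library sizes. PCR copies without molecular identifiers are counted as reads, so depth gives counting precision only.

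Counts were tested with edgeR 4.0.16 (R 4.3.3) by the quasi-likelihood test on all 24 libraries, 1 coefficient per group, after filterByExpr and TMM scaling, and SEs were the fold change over the square root of F. Log2 CPM used a prior count of 2. Alternatives were DESeq2 1.42.0, other scalings and filters, the compared groups alone and the pool as a term. Further ones were a replicate block, that block nested in genotype, and each culture left out. The scripts were tested on simulated data. The members and lists were chosen with earlier results of these data known. Named genes were all members, and of other lists the called genes with the largest changes. The test of the genotype difference in the second rise was added after values were seen. The pools are the prefixes in the libraries' labels, and what a prefix stands for was not stated there. Where nothing else is said, the spread is between cultures. Promoter sequences were matched by symbol for 9 of 9 genes to RefSeq, GRCm38.p6.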

Additional observations from a re-analysis of the deposited data

Results flagged for a closer look

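The response to the second LPS (LPS 24h->LPS 3h against LPS 24h) differed from the response to the first (LPS 3h against Unstim.) by a test of the difference itself, in edgeR's quasi-likelihood fit, for 8 genes in each genotype. In WT cells the log2 differences between the responses were -5.10 for Tnfaip3, -2.26 for Tnip1, -3.30 for Tnip3, -3.06 for Irak3, -2.72 for Zc3h12a, -3.44 for Zfp36, -8.13 for Socs1 and -1.82 for N4bp1. In Irg1-/- cells they were -2.62 for Tnfaip3, -3.41 for Tnip1, -3.70 for Tnip3, -2.23 for Irak3, -1.66 for Zc3h12a, -2.09 for Zfp36, -7.59 for Socs1 and -3.60 for N4bp1. The Socs1 values rest on Unstim. libraries with at most 9 counts, so their size depends on the prior count. The N4bp1 value in WT cells had an adjusted p of 0.0264 and was not called without LPS 24h culture 2 (-1.62), LPS 24h->LPS 3h culture 1 (-1.50) or 2 (-1.70), LPS 3h culture 2 (-1.56), or Unstim. culture 1 (-1.73) or 2 (-1.64). Cyld in WT cells was called without LPS 24h->LPS 3h culture 3 (-1.33, adjusted p = 0.0461).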

How the results depend on the processing

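Of 952 values computed under another setting, 906 kept their direction and side of the threshold, 8 lost a call, 31 gained one and 7 changed sign. Of 852 values with 1 culture left out, 800 kept both, 26 lost a call, 11 gained one and 15 changed sign.

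The count of members called from LPS 24h to LPS 24h->LPS 3h in WT cells was 2, and it was 4 with DESeq2's Wald test, 0 with only the compared groups and 1 to 2 with a culture left out. The count of 7 in the tolerance comparison of Irg1-/- cells was 4 with the pool as a term. Between genotypes at LPS 24h it was 0, with 2 by DESeq2, 1 without the filter on low counts and 0 to 2 with a culture left out. Without that filter the genotype difference in the second rise, added after the data were seen, called 1 member, Tnfaip3.

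Of the values that changed sign, Cyld from Unstim. to LPS 24h in Irg1-/- cells was -0.016 with DESeq2's size factors and -0.015 with its Wald test, and Cyld from LPS 24h to LPS 24h->LPS 3h there was 0.023 with only the compared groups and 0.0078 with TMM computed without the top 20 genes. With the pool as a term, Zfp36 from Unstim. to LPS 24h was 0.37, and Irak3 and N4bp1 from LPS 3h to LPS 24h were -0.074 and 0.13, all in Irg1-/- cells. With a culture left out, the ranges that crossed 0 were, from Unstim. to LPS 24h, -0.0109 to 0.24 for Cyld in WT, and -0.0448 to 0.416 for Tnfaip3 and -0.173 to 0.364 for Cyld in Irg1-/- cells. From LPS 24h to LPS 24h->LPS 3h they were -0.0317 to 0.379 for Zfp36 and -0.0633 to 1.02 for Cyld in WT, and -0.228 to 0.172 for Cyld in Irg1-/- cells, and from LPS 3h to LPS 24h in Irg1-/- cells -0.13 to 0.842 for Irak3. The cause was not tested. DESeq2's size factors shifted the median of all genes by up to -0.112 (log2).

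Over all genes, the second rise of WT cells had 474 calls (with 109 from only the compared groups, 766 by DESeq2 and 266 without WT LPS 24h culture 2). In Irg1-/- cells the pool term took the 3 h response from 4260 to 2361, the LPS 3h to LPS 24h change from 4162 to 1771 and tolerance from 3233 to 1407, and only the compared groups took the second rise from 611 to 1080, which was 370 without LPS 24h culture 2. Genotype counts over the settings were 5 (0 to 39) in Unstim. cells, 1 (1 to 32) at LPS 3h, 71 (3 to 246) after 24 h of LPS, 14 (2 to 133) in tolerized cells, 0 (0 to 68) for tolerance and 1 (0 to 170) for the second rise. The low of 2 in tolerized cells came from the replicate block nested in genotype. In that fit a genotype difference within a treatment refers to culture 1, not to the mean of the cultures.

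Cultures with the same number were not treated as paired, although in the WT LPS groups a number also marks a pool: their deviations correlated at -0.109 to 0.337 over 84 pairs, with 16 above 0.1. Pairs among certain culture 3 libraries all stood at 0.187 to 0.337. Those libraries were Irg1-/- Unstim., LPS 24h and LPS 24h->LPS 3h, and WT LPS 24h and LPS 24h->LPS 3h. What they shared was not tested. With the replicate block 3 members were called in the second rise of WT and 5 in that of Irg1-/- cells, where Tnip3 was gained, 9 in the first response of Irg1-/- cells, and 0 between genotypes in any treatment.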
